A study of Mus musculus with 6 samples.

Results

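The 7 genes that encode the subunits of the NMDA receptor, Grin1, Grin2a, Grin2b, Grin2c, Grin2d, Grin3a and Grin3b, were taken by gene symbol from the 53801 genes of a table of read counts. All 7 were found, each once. The table came from RNA-seq of the brains of 6 mouse embryos of strain C57BL/6, all labelled as stage E16.5 of gestation. The groups were 3 Bahd1-KO embryos (genotype Bahd1-/-, with no agent given) and 3 Bahd1-WT embryos (genotype Bahd1+/+), and BAHD1 is a protein that takes part in the formation of repressive chromatin. Embryos of both genotypes came from matings of mice with a single intact copy of Bahd1, the deletion was inherited and not limited to a cell type, and each library was made from the whole brain of an embryo. The comparison asked whether complete loss of BAHD1 changes gene expression in the brain before birth.

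Most NMDA receptors are cation channels that open only when glutamate and a co-agonist, glycine or D-serine, are bound. Each receptor holds the obligatory subunit GluN1 (from Grin1), which binds the co-agonist, together with GluN2 subunits (from Grin2a to Grin2d), which bind glutamate, or GluN3 subunits (from Grin3a and Grin3b), which bind glycine. In rodent brain, GluN2B and GluN2D are the main GluN2 subunits before birth, whereas GluN2A and GluN2C increase after birth, GluN2C mostly in the cerebellum, and GluN3B is best known from motor neurons.

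Promoter windows were held by RefSeq (GRCm38.p6) for 4 of the 7 genes, Grin1, Grin2c, Grin2d and Grin3b. The 250 bases before the start of Grin1 and of Grin3b are shown because these genes had a high and the lowest level of the family. Capitals mark CG dinucleotides, the sites of DNA methylation. The letters CG occur in 92.1% of the 32851 mouse windows of this length, with a median of 6.
Grin1, chr2:25319188-25319437, minus strand: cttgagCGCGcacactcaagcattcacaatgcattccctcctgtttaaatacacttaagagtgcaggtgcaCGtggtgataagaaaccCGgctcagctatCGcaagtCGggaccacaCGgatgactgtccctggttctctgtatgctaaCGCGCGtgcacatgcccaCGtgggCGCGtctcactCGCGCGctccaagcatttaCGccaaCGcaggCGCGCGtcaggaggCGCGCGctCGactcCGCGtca
Grin3b, chr10:79970474-79970723, plus strand: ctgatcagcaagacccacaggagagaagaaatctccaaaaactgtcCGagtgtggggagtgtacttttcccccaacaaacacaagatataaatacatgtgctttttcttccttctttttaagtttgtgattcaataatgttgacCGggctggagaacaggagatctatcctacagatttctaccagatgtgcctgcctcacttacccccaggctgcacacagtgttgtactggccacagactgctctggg
The Grin1 window held 27 CG dinucleotides, more than 91.4% of all windows, and the Grin3b window held 2, more than 18.8% of all windows. The windows of Grin2c and Grin2d held 15 and 9. All 4 windows lie before the starts held by RefSeq. By the gene positions given below, the Grin2d window falls inside the gene, and the Grin3b window reaches just past the start of its gene. A GC box, searched as GGGCGG or its complement CCGCCC on either strand, was found 3 times in the Grin2c window, with each box also holding a CG dinucleotide, and not in the windows of Grin1, Grin2d or Grin3b. Of all windows, 32.7% held a GC box.

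The libraries held 61724000 to 91782802 counts. Bahd1 was present at 2, 10 and 6 counts in Bahd1-KO replicates 1, 2 and 3, and at 1971, 3102 and 3470 counts in Bahd1-WT replicates 1, 2 and 3, so the counts followed the labelled genotypes (log2 fold change -8.40, SE 0.606, edgeR's quasi-likelihood test with Benjamini-Hochberg adjustment, adjusted p = 0.0462). With any of the embryos other than Bahd1-KO replicate 3 left out, this call was lost (edgeR adjusted p = 0.107 to 0.685), while the counts of the genotypes stayed far apart. Bahd1-KO replicate 3 stood apart from the other 5 embryos. Protein-coding genes took 53.5% of its counts, against 97.8 to 98.4% in the others. It lay above the other 5 embryos for 38.1% and below them for 36% of the 24739 genes tested. The label of whole brain was read against 12 neuronal markers, which summed to 2963 CPM (counts per 1000000 counts, scaled by TMM factors) in this embryo and to 8763 to 10864 CPM in the other 5. Of the 12 markers, 6 were lowest and 1 was highest in this embryo. Dcx, a gene of migrating young neurons, was at 33 CPM in it and at 1865 to 3713 CPM in the others. Snap25, of the same list, went the other way, at 910 CPM in it and at 154 to 285 CPM in the others. Its markers, given in full below, thus go against its label, although its Bahd1 counts match its genotype, and its identity as an E16.5 brain was not tested. Every Bahd1-KO mean and fold change over all 6 embryos includes it, and the tests of the members and of the gene lists are also given without it.

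Grin2b, which encodes the GluN2B subunit, was the most abundant member in every embryo when levels were compared per length, as CPM per kilobase of merged exons in GENCODE M21 (build GRCm38, which also gives the gene positions below). It averaged 19.7 ± 6.92 (SD, n = 6 embryos). Grin3a (8.36 ± 3.79), Grin1 (5.19 ± 1.53) and Grin2d (4.49 ± 2.17) followed. Grin2a (1.64 ± 2.55) and Grin2c (0.485 ± 0.507) were lower, and Grin3b (0.0108 ± 0.00923) was close to the limit of detection. Neighbours in this order were compared within embryos by exact sign-flip permutation tests, two-sided, over 6 embryos, with p adjusted over the 6 pairs; such a test cannot give an unadjusted p under 0.0312. Grin2b exceeded Grin3a in 6 of 6 embryos (mean log2 difference 1.37, SD 0.70, exact permutation p = 0.0312, adjusted p = 0.0625). The same held for Grin2a over Grin2c (1.29, SD 0.73) and for Grin2c over Grin3b (5.54, SD 2.03), both with the same p-values. The difference between Grin3a and Grin1 was within its spread (0.53, SD 1.06, higher in 5 of 6 embryos, exact permutation p = 0.25, adjusted p = 0.3), as were those between Grin1 and Grin2d (0.42, SD 1.05, 3 of 6 embryos, exact permutation p = 0.594, adjusted p = 0.594) and between Grin2d and Grin2a (2.12, SD 2.59, 5 of 6 embryos, exact permutation p = 0.125, adjusted p = 0.188). No pair passed the threshold after adjustment.

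Without Bahd1-KO replicate 3, the order of the means per kilobase of merged exons was the same. With these lengths, Grin3a exceeded Grin1 in 5 of 5 embryos (mean log2 difference 0.90, SD 0.60). Grin2d exceeded Grin2a in 5 of 5 (3.15, SD 0.65), and the difference between Grin1 and Grin2d was -0.01 (SD 0.16). With 5 embryos the exact permutation test cannot give a p under 0.0625.

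Which neighbours passed the threshold depended on the length used. Grin1 has 9700 bases of merged exons over 14 annotated transcripts but 4276 bases in its longest transcript, and Grin3a has 12275 and 7491 bases. Per kilobase of the longest transcript, Grin3a averaged 13.7 ± 6.21 and Grin1 11.8 ± 3.47 (SD, n = 6 embryos), and Grin1 lay above Grin2d (5.50 ± 2.66) in 6 of 6 embryos (mean log2 difference 1.30, SD 1.05, exact permutation p = 0.0312, adjusted p = 0.0469). With these lengths, 4 of the 6 pairs passed the threshold, each in 6 of 6 embryos, and the order of the means was the same. Grin3a over Grin1 did not pass, with Grin3a higher in 3 of 6 embryos (mean log2 difference 0.06, SD 1.06, exact permutation p = 0.875). Without Bahd1-KO replicate 3, Grin3a was higher in 3 of 5 embryos (0.43, SD 0.60, exact permutation p = 0.25), so its lead over Grin1 depended on the length. Grin2b over Grin3a, Grin2a over Grin2c and Grin2c over Grin3b had the same exact permutation p (0.0312) with both lengths. They passed because the adjustment changed once Grin1 over Grin2d reached the same p.

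**Figure D1:**
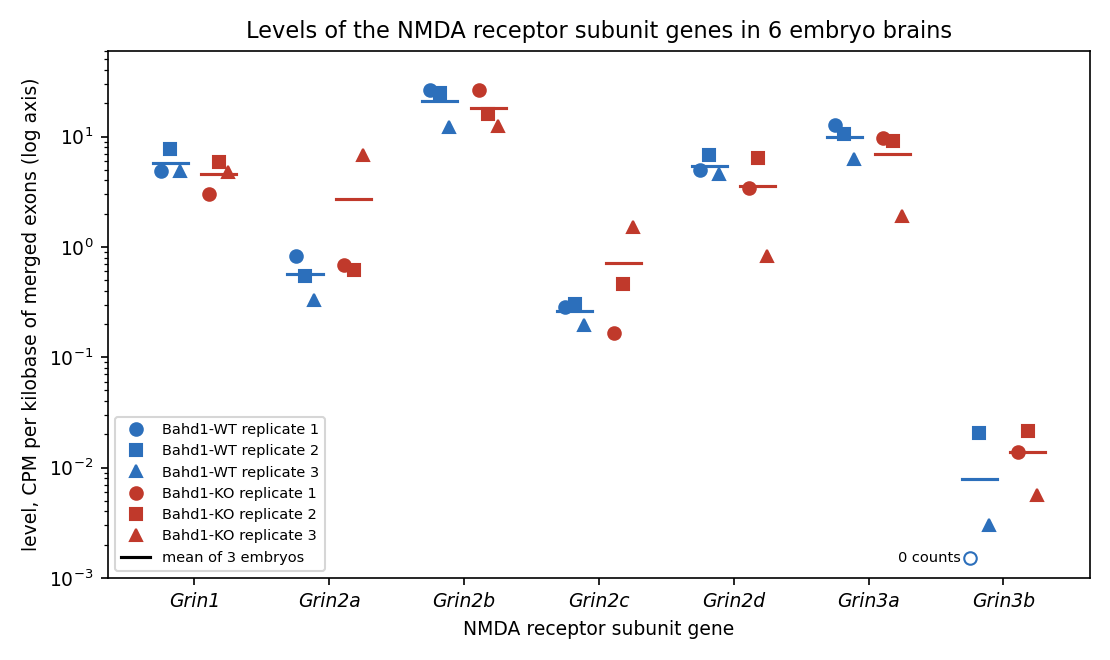
Level of each NMDA receptor subunit gene in each embryo, in CPM per kilobase of merged exons on a log axis, with the mean of the 3 embryos of a genotype as a bar. Grin2b is highest in every embryo, Grin3b lies below 0.03 throughout, and Bahd1-KO replicate 3 (red triangle) lies above all other embryos for Grin2a and Grin2c and below them for Grin2d and Grin3a.

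None of the 7 genes differed between Bahd1-KO and Bahd1-WT past the threshold, with or without Bahd1-KO replicate 3. Over all genes, edgeR called 1 of 24739 genes (0.00404%), which was Bahd1, and 4 of 23334 (0.0171%) without that embryo. DESeq2, the tool of the study, called 0.0334% of the genes to which it gave an adjusted p, and 0.0471% without that embryo. At an unadjusted p under 0.05, edgeR called none of the 7 genes and 4.67% of all genes, and DESeq2 called none of the 6 members to which it gave a p and 5.28% of all genes. Without that embryo neither tool called a member at this level, against 1.48% of all genes by edgeR and 0.724% by DESeq2. The values of the genotypes overlapped for all 7 genes, as they did for all but 6.71% of the genes tested.

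Grin1 (ENSMUSG00000026959, chromosome 2: 25291181-25319187, minus strand), the gene of the obligatory subunit, was at 29.4, 56.8 and 46.7 CPM in Bahd1-KO replicates 1, 2 and 3 and at 47.0, 74.6 and 47.7 CPM in Bahd1-WT replicates 1, 2 and 3. Bahd1-KO replicate 1 was lowest and Bahd1-WT replicate 2 highest, and the genotypes overlapped. The log2 fold change was -0.35 (SE 0.333, 95% confidence interval -1.13 to 0.43, edgeR adjusted p = 0.727), and -0.39 (-1.20 to 0.42, edgeR adjusted p = 0.981) without Bahd1-KO replicate 3. Grin1os, an antisense gene that lies within Grin1 on the opposite strand, held 0 to 6 counts against 1923 to 6577 counts of Grin1, so the counts of Grin1 came from its own strand.

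Grin2b (ENSMUSG00000030209, chromosome 6: 135713233-136173511, minus strand), whose product predominates before birth, was at 654, 394 and 309 CPM in Bahd1-KO and at 662, 610 and 302 CPM in Bahd1-WT. The low values were those of Bahd1-KO replicates 2 and 3 and of Bahd1-WT replicate 3, so the spread within each genotype was wider than the difference between them. The log2 fold change was -0.21 (SE 0.411, 95% confidence interval -1.18 to 0.75, edgeR adjusted p = 0.863), and -0.02 (-0.86 to 0.81, edgeR adjusted p = 0.995) without Bahd1-KO replicate 3. Scaled by total counts alone, Bahd1-KO replicate 3 was the lowest of the 6 embryos (211 CPM, against 335 to 694 CPM).

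Grin2d (ENSMUSG00000002771, chromosome 7: 45831883-45878378, minus strand), the other GluN2 gene of the fetal brain, was at 22.8, 42.9 and 5.54 CPM in Bahd1-KO and at 32.8, 44.9 and 30.3 CPM in Bahd1-WT. Bahd1-KO replicate 3 was 4.12-fold below the lowest of the other 5 embryos, while Bahd1-KO replicate 2 lay among the Bahd1-WT embryos. The log2 fold change was -0.60 (SE 0.642, 95% confidence interval -2.11 to 0.91, edgeR adjusted p = 0.757), and -0.14 (-0.90 to 0.62, edgeR adjusted p = 0.981) without that embryo.

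Grin2a (ENSMUSG00000059003, chromosome 16: 9567898-9995560, minus strand), whose product increases after birth, was at 12.2, 11.0 and 123 CPM in Bahd1-KO and at 14.7, 9.69 and 5.86 CPM in Bahd1-WT. Bahd1-KO replicate 3 was 8.31-fold above the next highest embryo, Bahd1-WT replicate 1, and Bahd1-KO replicates 1 and 2 lay within the range of the Bahd1-WT embryos. The log2 fold change was 2.27 (SE 0.979, 95% confidence interval -0.04 to 4.57, edgeR adjusted p = 0.696). Without Bahd1-KO replicate 3 it was 0.19 (SE 0.379, -0.69 to 1.06, edgeR adjusted p = 0.981). DESeq2 gave no p for this gene with all embryos, because a count of it was an outlier by its own criterion.

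Grin2c (ENSMUSG00000020734, chromosome 11: 115249169-115267243, minus strand), whose product is mostly cerebellar after birth, was at 0.840, 2.33 and 7.54 CPM in Bahd1-KO and at 1.43, 1.52 and 0.980 CPM in Bahd1-WT. Bahd1-KO replicate 3 was 3.23-fold above the next highest embryo, and Bahd1-KO replicate 1 was the lowest of all. The log2 fold change was 1.44 (SE 0.764, 95% confidence interval -0.35 to 3.24, edgeR adjusted p = 0.696), and 0.28 (-0.78 to 1.34, edgeR adjusted p = 0.981) without Bahd1-KO replicate 3.

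Grin3a (ENSMUSG00000039579, chromosome 4: 49661611-49845744, minus strand), the more abundant of the GluN3 genes, was at 120, 111 and 23.2 CPM in Bahd1-KO and at 155, 129 and 77.2 CPM in Bahd1-WT. Bahd1-KO replicate 3 was 3.32-fold below the next lowest embryo, and the other Bahd1-KO embryos lay within the range of the Bahd1-WT embryos. The log2 fold change was -0.51 (SE 0.591, 95% confidence interval -1.90 to 0.88, edgeR adjusted p = 0.771), and -0.08 (-0.76 to 0.61, edgeR adjusted p = 0.982) without Bahd1-KO replicate 3.

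Grin3b (ENSMUSG00000035745, chromosome 10: 79970715-79977190, plus strand) held 3, 6 and 1 counts with Bahd1 deleted and 0, 6 and 1 counts in wild type. The 0 counts of Bahd1-WT replicate 1 allow a level of up to 0.0327 CPM (3 counts of its total, for counting error only). The levels of both genotypes were at or near this limit, and a difference was not detectable at this depth (log2 fold change 0.83, SE 1.18, 95% confidence interval -1.94 to 3.61, edgeR adjusted p = 0.813, and 1.2, -1.31 to 3.71, edgeR adjusted p = 0.981, without Bahd1-KO replicate 3). The gene passed the filter of 10 counts over all embryos with 17 counts in all. Of 7 motor neuron markers, 6 passed the filter, while Mnx1 had 0 counts in at least 1 embryo and did not. The 7 markers summed to 11.5 CPM in Bahd1-KO replicate 3 and to 36.1 to 50.2 CPM in the other embryos. The part of motor neurons in the level of Grin3b was not tested.

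**Figure D2:**
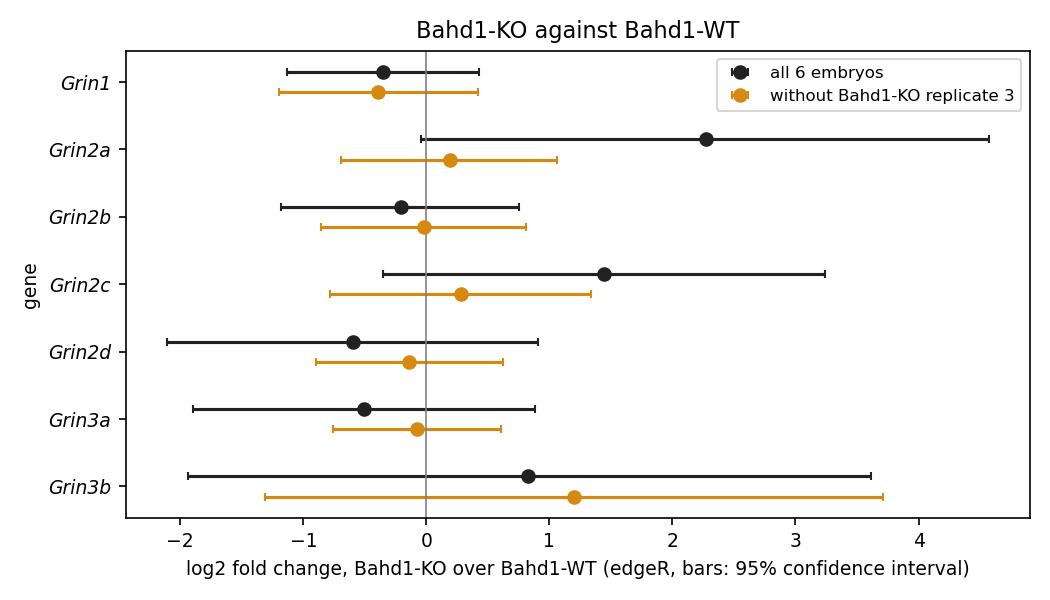
Log2 fold change of each subunit gene in Bahd1-KO over Bahd1-WT embryos, with 95% confidence intervals from edgeR, with all 6 embryos (black) and without Bahd1-KO replicate 3 (orange). All intervals include 0, and the values of Grin2a and Grin2c move from 2.27 and 1.44 to 0.19 and 0.28 when this embryo is left out.

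The summed level of the 7 genes was 43.4, 38.3 and 28.3 CPM per kilobase of merged exons with Bahd1 deleted and 50.2, 50.4 and 28.5 in wild type. Bahd1-KO replicate 3 and Bahd1-WT replicate 3 were alike and lowest, and the genotypes overlapped. The means were 36.7 ± 7.66 and 43.0 ± 12.6 (SD, n = 3 embryos each), with a log2 difference of -0.20, and of -0.03 without Bahd1-KO replicate 3 (exact permutation test, two-sided, p = 0.5 with all embryos, where 3 embryos against 3 cannot give a p under 0.1).

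Among the GluN2 genes, Grin2b took 86.0, 67.9 and 57.6% of the summed level with Bahd1 deleted and 81.5, 76.4 and 70.6% in wild type. The means were 70.5 ± 14.4% and 76.2 ± 5.47% (SD, n = 3 embryos each, exact permutation test, two-sided, p = 0.6). Without Bahd1-KO replicate 3, the difference changed from -5.68 to 0.763 percentage points, in the other direction. Grin2d took 11.2 to 27.5% in the 5 embryos other than Bahd1-KO replicate 3, so that Grin2b and Grin2d together made up nearly the whole GluN2 level in them. Grin2a took 1.68 to 2.62% in these 5 embryos and 31.6% in Bahd1-KO replicate 3, where Grin2d took 3.85% and Grin2c 6.93%. The ratio of Grin2b to Grin2a, which does not depend on the scaling of the library, was 25.9 to 45.5 in the 5 embryos and 1.82 in Bahd1-KO replicate 3.

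**Figure D3:**
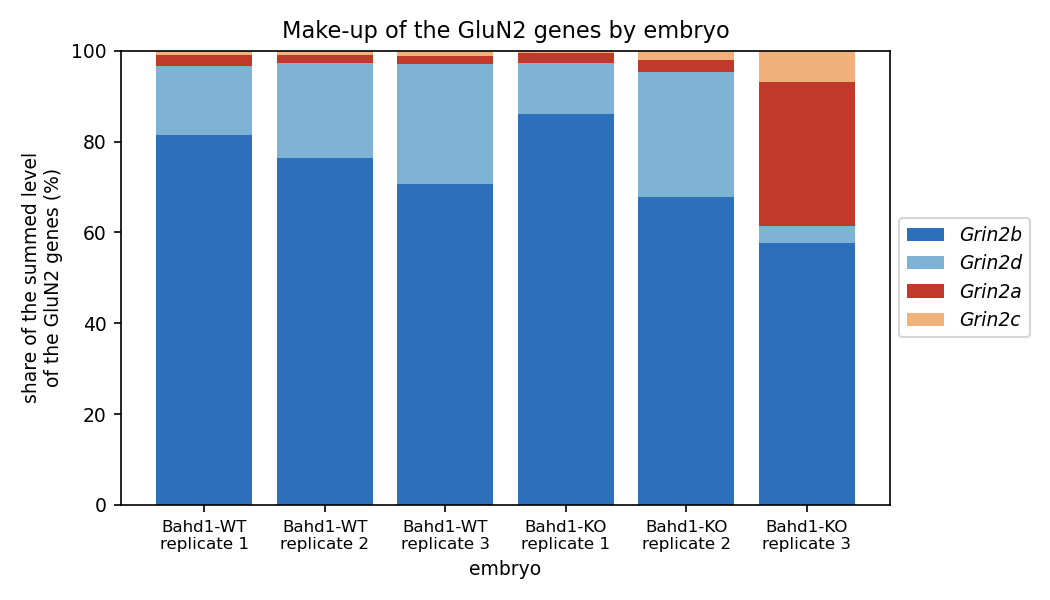
Share of each GluN2 gene in the summed level of the 4 GluN2 genes (CPM per kilobase of merged exons) for each embryo, in percent. Grin2b and Grin2d fill nearly the whole bar in 5 embryos, while Grin2a takes 31.6% in Bahd1-KO replicate 3 against 1.68 to 2.62% in the others.

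The place of Bahd1-KO replicate 3 was the same for these genes under TMM, total-count and protein-coding scaling, above the other 5 embryos for Grin2a and Grin2c and below them for Grin2d and Grin3a. On the log2 scale, it differed from the mean of the other 5 by 3.57 for Grin2a and by 2.46 for Grin2c, and 3.61% and 9.42% of all genes tested lay as far above. For Grin2d and Grin3a it differed by -2.59 and -2.31, and 2.76% and 3.77% of all genes lay as far below. Grin1 differed by -0.06 in this embryo and lay within the range of the others.

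Markers of other cell types and of other tissues also differed in Bahd1-KO replicate 3. The median difference of Bahd1-KO replicate 3 from the mean of the other 5 embryos was 1.80 (log2) over 12 genes of postnatal neurons, 2.83 over 6 genes of mature cerebellar granule cells, 3.95 over 8 genes of myelinating oligodendrocytes and 1.45 over 7 genes of astrocytes. It was -0.96 over the 12 neuronal genes (1 highest and 6 lowest in it), -1.42 over 8 genes of dividing progenitors, -0.26 over 6 genes of motor neurons and 0.63 over 8 genes of microglia. Over genes foreign to most of the brain it was 5.76 for 10 Hox genes of hindbrain and spinal cord, 4.09 for 8 genes of skeletal muscle and 8.68 for 6 genes of lung. Its postnatal neuron genes summed to 783 CPM (11 of 12 highest in it, none lowest), against 223 to 326 CPM in the other 5 embryos. Its cerebellar granule cell genes summed to 401 CPM (4 of 6 highest, 2 lowest), against 308 to 373 CPM. Its oligodendrocyte genes summed to 1140 CPM (8 of 8 highest), against 77.9 to 156 CPM. Its astrocyte genes summed to 958 CPM (5 of 7 highest, 1 lowest), against 494 to 681 CPM, and its microglia genes to 111 CPM (6 of 8 highest), against 72 to 86.2 CPM.

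For dividing progenitors the median and the sum pointed in opposite directions. These genes summed to 1525 CPM in Bahd1-KO replicate 3, above the 881 to 1226 CPM of the other 5 embryos, although 5 of the 8 were lowest and 3 highest in it. Genes of motor neurons summed to 11.5 CPM in it, against 36.1 to 50.2 CPM, and 1 of the 6 was lowest and 1 highest in it. The Hox genes summed to 107 CPM (9 of 10 highest), against 0.0916 to 10.3 CPM, and the skeletal muscle genes to 85.4 CPM (8 of 8 highest), against 2.41 to 12.2 CPM. Markers with 0 counts in at least 1 embryo were Mnx1 of motor neurons, Hoxa2, Hoxa3, Hoxa4, Hoxa5, Hoxb3, Hoxb5, Hoxc4, Hoxd3 and Hoxd4 of the Hox genes, Mog and Opalin of oligodendrocytes, Tnnc2 of skeletal muscle, and Sftpc and Sftpd of lung.

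Mobp, a myelin gene, was at 302 CPM in Bahd1-KO replicate 3, at 16.4 CPM in Bahd1-WT replicate 1 and at 0.193 to 0.702 CPM in the other 4 embryos. Gabra6, the GABA receptor subunit of mature cerebellar granule cells, was at 43.1, 2.03 and 0.0355 to 0.214 CPM in the same embryos. Bahd1-WT replicate 1 was thus the next highest embryo for both. For Grin2a it was also next highest, but close to Bahd1-KO replicate 1 (14.7 against 12.2 CPM). For Grin2c it was not, since Bahd1-KO replicate 2 (2.33 CPM) lay above Bahd1-WT replicate 1 (1.43 CPM). The lung genes summed to 1129 CPM in Bahd1-KO replicate 3, to 11.2 CPM in Bahd1-KO replicate 2 and to 0.290 to 0.525 CPM in the other 4 embryos. The part of these markers in the values of the subunit genes was not tested. In whole tissue, fewer cells of a type and less RNA per cell cannot be told apart.

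**Figure D4:**
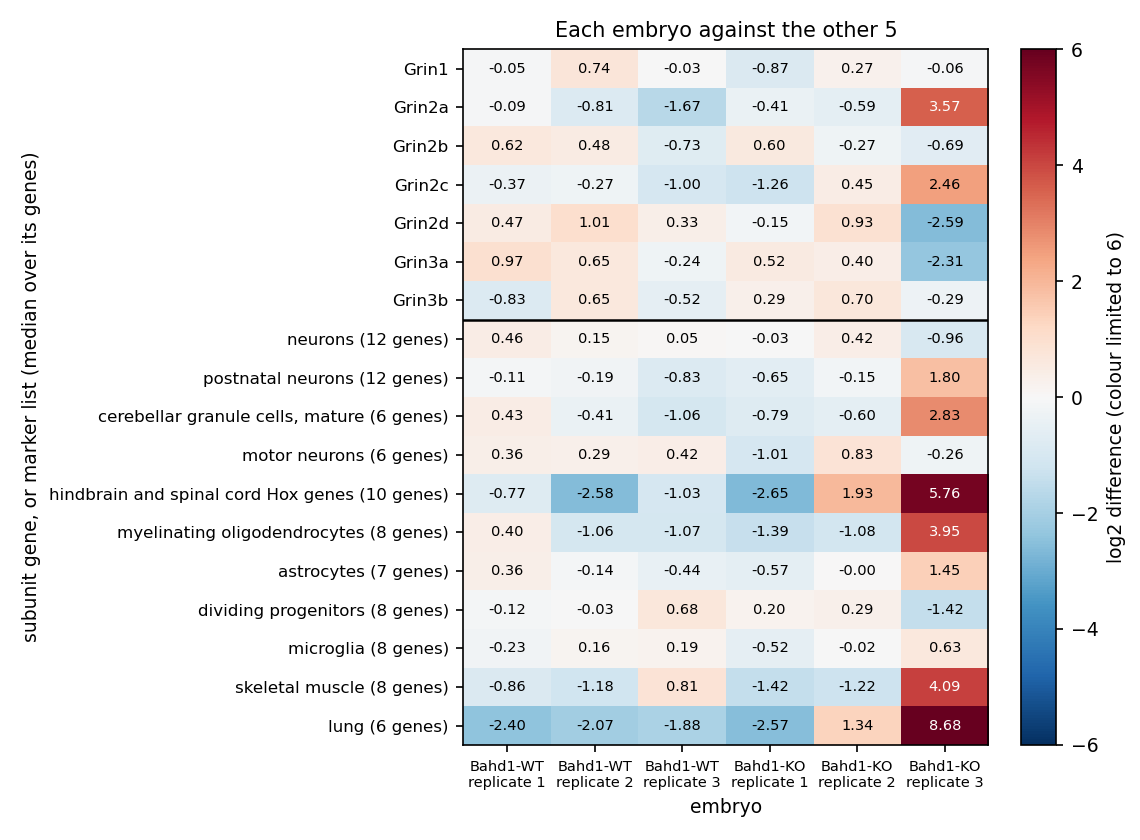
Log2 level (CPM, TMM-scaled, with 0.05 added) of each subunit gene, and the median over each marker list, in an embryo minus the mean of the other 5 embryos. Bahd1-KO replicate 3 departs most, with Grin2a at 3.57, Grin2c at 2.46, Grin2d at -2.59 and Grin3a at -2.31 beside 3.95 for myelinating oligodendrocytes and 8.68 for lung genes.

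The genes whose profile over the 6 embryos was closest to that of a member were found by the root mean square (r.m.s.) difference of centred log2 CPM among 14738 other genes of at least 1 CPM. These likenesses are a description, and all of them include the embryo that stood apart. Closest to Grin1 were Iqsec2, Sipa1l3 and Pcnx2 (r.m.s. differences 0.0771, 0.0837 and 0.105), Iqsec2 being a postsynaptic exchange factor that associates with NMDA receptors. Closest to Grin2b were Klf12, Tshr and Cntnap5c (0.0556, 0.0696 and 0.0794). Closest to Grin2a were Klf9, Cftr and Slco4c1 (0.111, 0.118 and 0.127), and closest to Grin2c were Lynx1, Thy1 and Tuba4a (0.185, 0.223 and 0.225), of which Lynx1 and Thy1 are proteins of the surface of mature neurons. Closest to Grin2d were Rhcg, Pdzd7 and Alk (0.138, 0.139 and 0.14), and closest to Grin3a were Clrn1 and the protocadherins Pcdha5 and Pcdha9 (0.0902, 0.0958 and 0.109). Without Bahd1-KO replicate 3, Iqsec2 stayed among the 3 closest to Grin1, Tshr and Cntnap5c among those closest to Grin2b and Pcdha5 among those closest to Grin3a. In these 5 embryos the most alike pairs of members were Grin1 and Grin2d (r.m.s. difference 0.142) and Grin2a and Grin3a (0.191), against 0.954 and 2.20 with all 6. Grin2d was only rank 94 among the genes closest to Grin1, and Grin3a rank 313 for Grin2a. Other members differed much more, such as Grin2b and Grin2c (0.716) and Grin1 and Grin2a (0.693), so the members did not move together as a family. Grin3b was too low for this measure.

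Of 67 genes of the pathway around the receptor, all were tested and edgeR called none, with or without Bahd1-KO replicate 3. None had an unadjusted p under 0.05 in these edgeR fits, against 4.67% of all genes with all embryos and 1.48% without that embryo. The median log2 fold change over all genes was 0.06 with all embryos and -0.01 without Bahd1-KO replicate 3.

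Scaffolds and adaptors anchor the receptor in the postsynaptic density. Of 21, 15 had a negative and 6 a positive log2 fold change, with a median of -0.21 and a range of -0.87 to 0.84, and a median of -0.14, with 13 negative and 8 positive, without Bahd1-KO replicate 3. Dlg4, which encodes the scaffold PSD-95, was at 121, 270 and 81.0 CPM in Bahd1-KO and at 193, 345 and 324 CPM in Bahd1-WT (log2 fold change -0.87, SE 0.480, edgeR adjusted p = 0.696, and -0.56 without Bahd1-KO replicate 3). Dlg1, which encodes SAP97, was at 204 CPM in Bahd1-KO replicate 3 and at 60.7 to 85.2 CPM in the other 5 embryos (log2 fold change 0.84, SE 0.445, edgeR adjusted p = 0.696, and 0.15 without that embryo). Lin7c (109 CPM per kilobase of merged exons, SD 38.8, n = 6 embryos) and Apba1 (27.7, SD 8.06), which join the complex that carries GluN2B along dendrites, had the highest levels of the list, with log2 fold changes of -0.15 and -0.42 (edgeR adjusted p = 0.915 and 0.708), and of 0.20 and -0.14 without Bahd1-KO replicate 3.

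Of 20 genes of downstream signalling, 11 had a negative and 9 a positive log2 fold change (median -0.08, range -0.82 to 1.89), and 14 a negative and 6 a positive value without Bahd1-KO replicate 3 (median -0.16). Calm2 (632 CPM per kilobase of merged exons, SD 87.6, n = 6 embryos) and Calm3 (270, SD 96.6), which encode the calcium sensor calmodulin, were the most abundant, with log2 fold changes of -0.04 and -0.64 (edgeR adjusted p = 0.967 and 0.696), and of 0.06 and -0.43 without that embryo. Akap5, an anchor for kinases and calcineurin at the synapse, was at 552 CPM in Bahd1-KO replicate 3 and at 46.4 to 75.3 CPM in the other 5 embryos, which overlapped between genotypes (log2 fold change 1.89, SE 0.901, edgeR adjusted p = 0.696, and -0.09 without that embryo). Ptk2b, a calcium-dependent tyrosine kinase, was at 66.6 CPM in it and at 5.10 to 13.4 CPM in the others (log2 fold change 1.52, SE 0.865, edgeR adjusted p = 0.696, and -0.20 without that embryo).

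Of 14 genes that make or move the co-agonists, 8 had a negative and 6 a positive log2 fold change (median -0.03, range -0.75 to 3.21), and 9 a negative and 5 a positive value without Bahd1-KO replicate 3 (median -0.05). Psat1, of serine synthesis, and Slc1a4, a transporter of neutral amino acids that include serine, had the highest levels (25.0, SD 3.66, and 24.7, SD 9.19, CPM per kilobase of merged exons, n = 6 embryos), with log2 fold changes of 0.17 and -0.25 (edgeR adjusted p = 0.813 and 0.875), and of 0.24 and 0.17 without that embryo. Slc6a5, the glycine transporter of glycinergic neurons, was at 0.305, 6.13 and 15.8 CPM in Bahd1-KO and at 5.24, 1.66 and 1.56 CPM in Bahd1-WT (log2 fold change 1.39, SE 1.15, edgeR adjusted p = 0.703, and 0.21 without Bahd1-KO replicate 3). Phgdh, the first enzyme of serine synthesis, was at 3.19 CPM in Bahd1-KO replicate 3 and at 6.75 to 18.6 CPM in the others (log2 fold change -0.75, SE 0.600, edgeR adjusted p = 0.699, and -0.37 without that embryo).

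Of 12 genes of glutamate synthesis, loading and clearance, 6 had a negative and 6 a positive log2 fold change (range -0.60 to 1.5), and the same counts held without Bahd1-KO replicate 3 (median -0.06). Slc1a2, the main glutamate transporter of astrocytes, was at 1614 CPM in Bahd1-KO replicate 3 and at 175 to 340 CPM in the other 5 embryos (log2 fold change 1.5, SE 0.761, edgeR adjusted p = 0.696, and 0.03 without that embryo). Glul, the glutamine synthetase of astrocytes, was at 669 CPM in it and at 206 to 258 CPM in the others (log2 fold change 0.63, SE 0.467, edgeR adjusted p = 0.696, and -0.12 without it). Gls2, a glutaminase, was at 4.06 CPM in it and at 0.881 to 1.42 CPM in the others (log2 fold change 0.84, SE 0.659, edgeR adjusted p = 0.697, and -0.19 without it). The high values of Slc1a2, Glul and Gls2 thus came from the same embryo as those of Grin2a and Grin2c. Of the 12 genes, 4 were highest and 4 lowest in it, beside 38.1% and 36% of all genes tested. In it, 2 of 21 scaffolds and adaptors were highest and 9 lowest. Of 20 signalling genes 5 were highest and 11 lowest, and of 14 co-agonist genes 4 and 5.

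**Figure D5:**
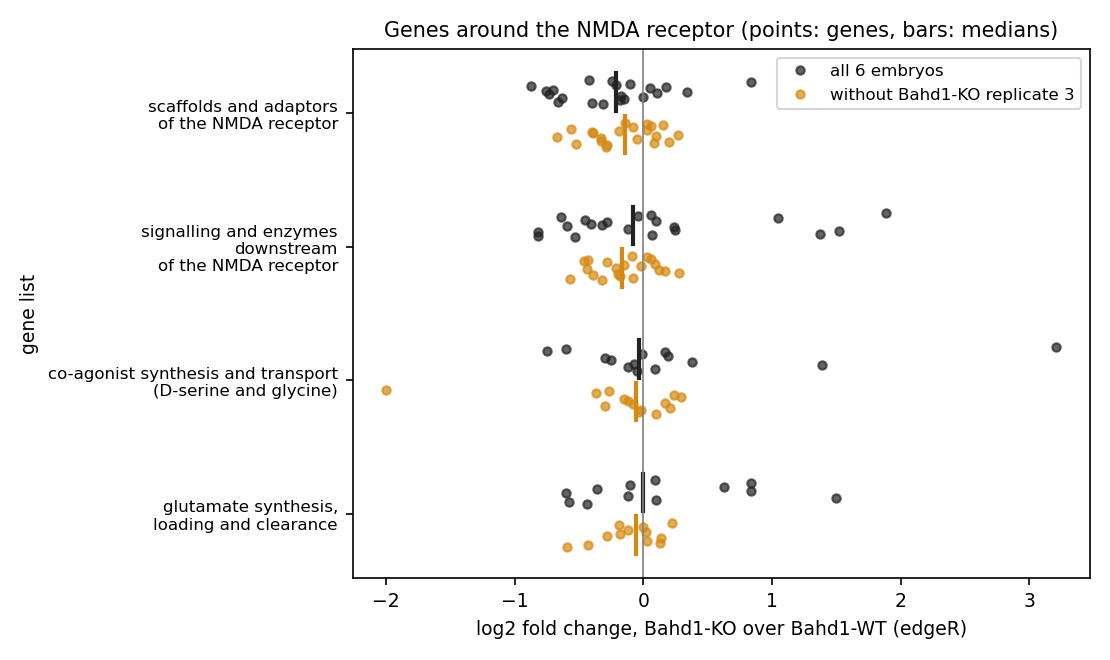
Log2 fold change in Bahd1-KO over Bahd1-WT embryos of each gene of the 4 lists around the NMDA receptor, with all 6 embryos (black) and without Bahd1-KO replicate 3 (orange), and the median of each list as a bar. No gene passed the adjusted threshold, and the points above 1 with all embryos lie below 0.3 without that embryo.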

How the data were processed

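Polyadenylated RNA was sequenced from 6 whole embryo brains, 3 of each genotype, as stranded libraries, with technical runs of each library in 1 count column. The deposited values are read counts per gene, with no normalization or filter. Per the submitters' processing notes and the methods, the authors trimmed reads with cutadapt 1.11, aligned them to GRCm38 (Ensembl 92) with STAR 2.5.0a, a second aligner also being named, and counted exons by strand with featureCounts 1.4.6-p3. Of 53801 genes, 53706 (99.82%) matched GENCODE M21, which gave positions and lengths.

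Genes with at least 10 counts in all were tested with edgeR 4.0.16 (R 4.3.3; quasi-likelihood, two-sided, TMM factors, genotype alone) and Benjamini-Hochberg adjustment over all genes, at 0.05. The code was tested on simulated data. DESeq2 1.42.0, the tool of the study, was an alternative, as were other filters, scalings, protein-coding genes alone, the replicate block and each embryo left out. An offset of 0.001 CPM per kilobase was added for the order of levels. Single values were tested by exact permutation (scipy). Embryos are separate animals. Counting limits cover counting error only, and no replicate pair agreed within sampling noise (chi-square per degree of freedom 83 or more).

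The members and lists were chosen with earlier results of these data known. The genes named are Bahd1, the members, of each pathway list the genes past the threshold, the 2 highest per length and the 2 with the largest change among those of at least 1 CPM, the 3 genes most like each member, and markers at 0 counts in an embryo. Other markers, and Grin1os, were chosen after their values were seen.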

Additional observations from a re-analysis of the deposited data

How the results depend on the processing

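None of the 7 subunit genes passed the threshold under any alternative that gave a p. Grin3b had no value with filterByExpr or with at least 10 counts in every embryo, and Grin2a had none with DESeq2. Leaving out each embryo in turn gave log2 fold changes of -0.60 to -0.11 for Grin1, 0.19 to 2.73 for Grin2a, -0.58 to -0.02 for Grin2b, 0.28 to 1.91 for Grin2c, -1.38 to -0.14 for Grin2d, -0.84 to -0.08 for Grin3a and 0.23 to 2.84 for Grin3b. In each of these 6 refits, each of the 7 genes kept the sign it had with all embryos. For Grin2a and Grin2c the lowest values, 0.19 (SE 0.379) and 0.28 (SE 0.457), were those without Bahd1-KO replicate 3. The other refits all held that embryo. Over all genes, edgeR called 0 to 4 genes when an embryo was left out, 4 of them without Bahd1-KO replicate 3, 0 with at least 10 counts in every embryo (452 at an unadjusted p under 0.05), which removes Bahd1, and 8 with DESeq2. Bahd1 kept its direction (-8.78 to -8.01 with an embryo left out) but passed only without Bahd1-KO replicate 3 among those refits. The cause was not tested. Over all genes tested, the log2 fold change had a median of 0.06 with all embryos, 0.17 with upper-quartile factors and -0.11 with total counts.

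Same-numbered embryos of the 2 genotypes deviated together with correlations of 0.22, 0.32 and -0.12, and differently numbered embryos with correlations of -0.5 to 0.36. These few values cannot decide whether same-numbered embryos share a litter or batch, and this was not tested. A replicate block left 0 calls in edgeR (517 genes below 0.05 before adjustment), and the log2 fold change of Bahd1 under it was -8.49 (adjusted p = 0.229). Chosen after seeing the data, DESeq2 without Bahd1-KO replicate 3 called 11 genes, and the replicate block without that embryo called 16, with log2 fold changes of -0.06 for Grin2a and -0.06 for Grin2c. In this last fit the 95% intervals of Grin1 (-0.55, -0.86 to -0.24, edgeR adjusted p = 0.273) and Grin3a (-0.31, -0.59 to -0.03, edgeR adjusted p = 0.482) excluded 0. Those of the other 5 members included it. Before adjustment, 19 of the 67 pathway genes lay under 0.05, 2 of them higher in Bahd1-KO, beside 2171 of the 23334 genes tested. The share was larger among the pathway genes than over all genes. No conclusion is drawn from it, since the grounds for this block are undecided and the lists were not tested as sets. With the block and all embryos, 2 of the 67 pathway genes lay under 0.05, beside 517 of the 24739 genes tested.

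The log2 difference of the summed level was -0.48 to -0.03 with an embryo left out. The difference in the share of Grin2b was -13.4 to 0.763 percentage points, 0.763 without Bahd1-KO replicate 3. With the longest transcript, 4 neighbouring pairs of the order passed the threshold, against 0 with merged exons. With 5 embryos no pair can pass, since the smallest p is 0.0625. No gene of the pathway lists passed the adjusted threshold under any alternative run. Grin3b, with at most 6 counts in an embryo, is limited by depth.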
